A study of Mus musculus with 11 samples.

Results

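The genes described here are 33 markers of disease-associated and activated microglia, taken by name from a list and matched by symbol to the count tables of a mouse cortex RNA-seq series. All 33 were found among the 53700 gene identifiers in the tables, and all 33 passed the filter on low counts. None of them passed the threshold for a difference between animals with and without Abi3. Laptm5, Cd68, Trem2 and Tyrobp, at fitted folds of 1.36, 1.43, 1.28 and 1.23, were the genes with the lowest p-values, while Apoe, Cst7 and Lpl had folds of 0.997, 0.982 and 0.941.

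Microglia are the resident macrophages of the brain. Around amyloid plaques they lower the genes of their resting state and turn on genes for lipid handling, lysosomal digestion, phagocytosis and adhesion, a program known as disease-associated microglia. The full program depends on the lipid-sensing receptor Trem2 and its signaling partner Tyrobp. Abi3 codes for an adaptor protein of the actin-regulating WAVE complex, and in brain it is expressed mainly by microglia.

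To examine these genes in an amyloid model lacking Abi3, cortical RNA of female 5xFAD mice aged 8 months was compared between 6 animals with both copies of Abi3 (Abi3 WT) and 5 animals with none (Abi3 KO). All 11 animals carried the 5xFAD transgenes, which are driven by the neuronal Thy1 promoter and lead to amyloid deposits, and their strain was given as C57BL/6. There was no group without the transgenes, so the response to amyloid itself was not measured here. The 5xFAD line had a mixed B6 and SJL background, and the Abi3 allele was a null deletion made in C57BL/6N and present in every cell. By the study's methods, mice of both groups were heterozygous for an SJL-derived Trem2 coding allele. The sequencing method, QuantSeq, reads only the 3′ end of each transcript, so a count stands for reads at that end and does not scale with transcript length.

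Libraries held 3202310 to 5501958 reads in genes. Abi3 itself had raw counts of 10 to 38 in the Abi3 WT animals and of 0, 2, 0, 0 and 0 in Abi3 KO replicates 1 to 5, so the libraries followed their labels. Libraries of the genotypes also differed in a technical measure. Reads that fell outside annotated genes numbered 65.9 ± 3.67 per 100 reads in genes in Abi3 WT (SD, n = 6) and 54.0 ± 4.99 in Abi3 KO (SD, n = 5; two-sided exact permutation test, p = 0.00649). Ttr, the transthyretin gene that marks choroid plexus, had 3447 normalized counts in Abi3 WT replicate 4, 1847 in Abi3 KO replicate 1 and 2270 in Abi3 KO replicate 5, against at most 151.6 in the other animals. The part of either measure in the results below was not tested, and values without those 3 libraries are given for some of the results only.

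None of the 33 genes passed an adjusted p of 0.05 in DESeq2, where 95 of 17626 genes tested (0.539%) did, 60 of them higher (0.34%) and 35 lower (0.199%) in Abi3 KO. The count was also 0 with the tool's filter on low means switched off, where 58 genes (0.329%) passed, and in edgeR, where 44 of 19035 genes (0.231%) passed. Before adjustment, Laptm5, Cd68, Trem2 and Tyrobp had p-values under 0.05 in DESeq2, all with a higher level in Abi3 KO, and no gene of the list had one with a lower level. Over all genes tested, 8.58% had an unadjusted p under 0.05, 4.14% with a higher and 4.44% with a lower level in Abi3 KO. For no gene of the list did the animals of one genotype lie entirely above those of the other, which 1.04% of all genes did. In whole cortex, a different number of microglia and a different amount of RNA per cell cannot be told apart.

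The fitted log2 fold changes, Abi3 KO against Abi3 WT, leaned to values above 0. Of the 33 genes, 22 were above and 11 below 0, with a median of 0.14 and a range from -0.26 for Lgals3 to 1.14 for Ch25h. Of all genes tested, 49.5% were above 0, and their median was -0.003. The 16 genes of the list that are expressed mainly by myeloid cells in brain had a median of 0.27 and included the 4 genes with an unadjusted p under 0.05. The 17 that neurons, astrocytes or other cells also express had a median of 0.11 and included none. Without the 3 libraries high in Ttr, the count past the threshold stayed at 0, the median was 0.18 and 7 genes had an unadjusted p under 0.05, where 6.11% of all genes tested did.

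**Figure D1:**
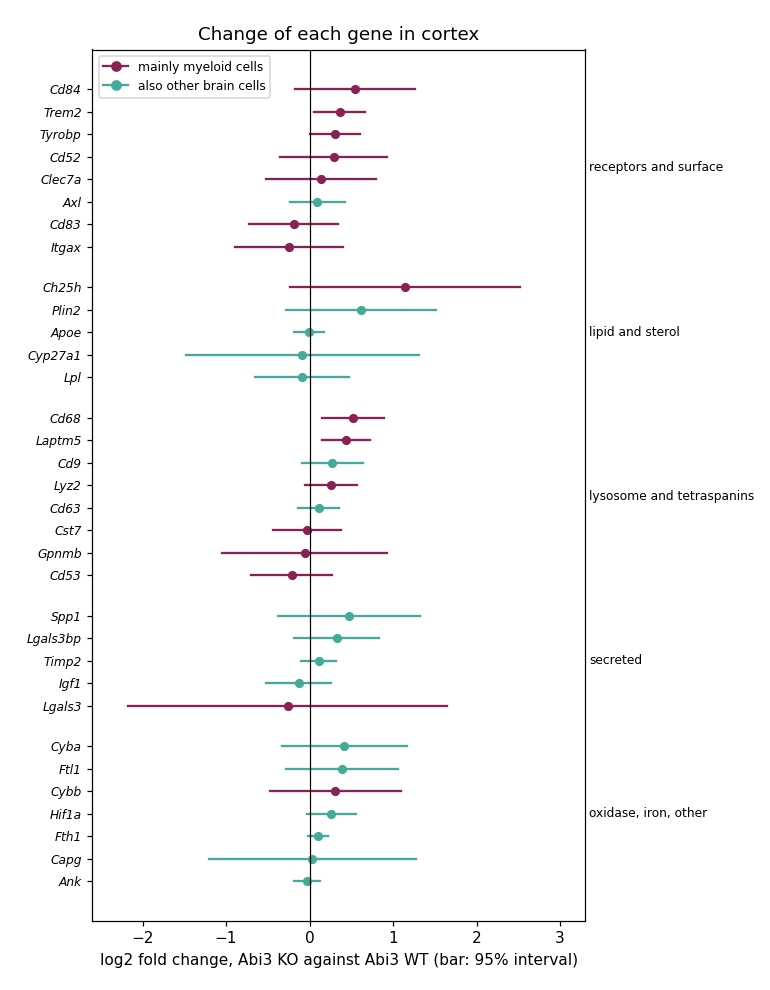
Log2 fold change of each of the 33 genes (x axis, Abi3 KO against Abi3 WT) with its 95% interval as a bar, grouped by function, with colors for genes expressed mainly by myeloid cells and genes that other brain cells also express. The intervals of Cd68, Laptm5, Trem2 and Tyrobp lie above 0, and the other 29 include it.

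The upstream sequences of the 3 genes with the lowest adjusted p are shown for reference, 250 bases up to the gene start, 5′ to 3′ on the gene's strand, from RefSeq on build GRCm38.p6, an earlier build than the GRCm39 used for the counts. They cover chr4:130913066-130913315 on the plus strand for Laptm5, chr11:69666171-69666420 on the minus strand for Cd68 and chr17:48346151-48346400 on the plus strand for Trem2. Capitals mark the core of the site bound by PU.1, the factor that specifies myeloid cells, in Laptm5 and Trem2, where it is on the reverse strand, and the site bound by AP-1, a factor induced by activation, in Cd68.
Laptm5: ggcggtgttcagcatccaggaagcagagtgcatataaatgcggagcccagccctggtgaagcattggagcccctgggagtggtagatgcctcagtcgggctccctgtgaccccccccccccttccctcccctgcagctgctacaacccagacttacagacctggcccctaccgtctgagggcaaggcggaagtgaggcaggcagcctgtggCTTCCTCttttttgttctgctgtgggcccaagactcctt
Cd68: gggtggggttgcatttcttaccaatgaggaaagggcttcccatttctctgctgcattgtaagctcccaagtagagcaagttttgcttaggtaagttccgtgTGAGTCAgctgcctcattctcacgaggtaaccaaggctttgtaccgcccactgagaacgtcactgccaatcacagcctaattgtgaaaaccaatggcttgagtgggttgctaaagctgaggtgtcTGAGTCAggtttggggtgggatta
Trem2: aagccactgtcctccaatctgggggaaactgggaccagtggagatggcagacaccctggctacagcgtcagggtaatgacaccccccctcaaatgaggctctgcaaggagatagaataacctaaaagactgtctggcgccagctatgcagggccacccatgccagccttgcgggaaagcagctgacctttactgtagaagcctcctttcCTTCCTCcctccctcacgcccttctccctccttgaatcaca

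The PU.1 core began 39 bases before the start of Laptm5 and 41 bases before that of Trem2, and the AP-1 sites 149 and 24 bases before that of Cd68. The RefSeq table held promoters, 250 bases before to 50 after the start, for 29 of the 33 genes, all but Tyrobp, Cd52, Cd83 and Lpl. A gene of the list was counted if any of its listed starts held the motif, whereas the shares of all promoters count each start. The shares are thus not directly comparable. Searched on both strands, the PU.1 core GAGGAAG was in the promoters of 7 of the 29 genes (Trem2, Axl, Cd53, Cd63, Laptm5, Spp1 and Igf1) and in 13.6% of all 32851 promoters. The AP-1 site TGAGTCA was in those of Itgax, Cd84, Cd68 and Gpnmb and in 5.2% of all, and the E-box TCACGTG, read by MITF and TFE factors that drive lysosomal genes, in those of Plin2 and Hif1a and in 3.77% of all. The PU.1 core was in 3 of 13 myeloid and 4 of 16 broadly expressed genes of the list with a promoter. These spellings were picked after several had been tried, a match describes letters only, and the count data say nothing about binding.

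Surface receptors and adhesion molecules were 8 of the genes. Trem2 (ENSMUSG00000023992, chromosome 17, 48653429 to 48661175 in GRCm39) binds lipids and apolipoproteins and is needed for the full disease-associated program. Its normalized count was 98.3 at the lowest, 139.5 at the median and 171.7 at the highest in Abi3 WT, and 135.3, 191.9, 188.6, 195.4 and 160.5 in Abi3 KO replicates 1 to 5. Replicates 2, 3 and 4 of Abi3 KO lay above every Abi3 WT animal and the groups overlapped through replicates 1 and 5. The means were 136 ± 26.0 (SD, n = 6) and 174 ± 25.9 (SD, n = 5), with a log2 fold change of 0.36 (SE 0.158; DESeq2 adjusted p = 0.313). Tyrobp, the adaptor that carries the Trem2 signal into the cell, had 222.4, 279.6 and 357.3 in Abi3 WT in the same order, and 256.9, 295.9, 399.9, 495.8 and 338.0 in Abi3 KO. Only Abi3 KO replicates 3 and 4 lay above the highest Abi3 WT animal, and the log2 fold change was 0.30 (SE 0.154; DESeq2 adjusted p = 0.423). Without Abi3 KO replicate 4 it was 0.155. The log2 ratio of Trem2 to Tyrobp was -1.10 ± 0.47 in Abi3 WT (SD, n = 6) and -1.01 ± 0.26 in Abi3 KO (SD, n = 5), a difference of 0.09 that was smaller than either spread.

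Receptors that mark fully activated plaque microglia were at low counts. Clec7a, the beta-glucan receptor Dectin-1, ranged from 12.8 to 76.5 with a median of 40.6 in Abi3 WT and was at 33.6, 32.3, 65.7, 46.3 and 51.2 in Abi3 KO. All 5 Abi3 KO values fell inside the Abi3 WT range, and the log2 fold change was 0.14 (SE 0.337). Itgax, which codes for the integrin CD11c, ranged from 15.7 to 47.8 with a median of 31.4 in Abi3 WT and was at 23.1, 29.3, 23.9, 40.7 and 17.1 in Abi3 KO. These too lay within the Abi3 WT range. Its log2 fold change was -0.24 (SE 0.330), and 0.05 without the 3 libraries high in Ttr. Neither gene was given an adjusted p.

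The other 4 receptor and surface genes did not separate the genotypes either. Axl, a receptor tyrosine kinase for phosphatidylserine on dying cells, had means of 145 ± 20.5 (SD, n = 6) in Abi3 WT and 154 ± 39.7 (SD, n = 5) in Abi3 KO (DESeq2 adjusted p = 0.888). Cd84, a homotypic receptor of the SLAM family, had a log2 fold change of 0.54 (SE 0.367). Abi3 KO replicates 3 and 4, at 62.1 and 68.9, were above the highest Abi3 WT value of 52.0, and replicates 1, 2 and 5 were among the Abi3 WT animals. The log2 fold change of Cd84 was 0.31 without Abi3 KO replicate 4 and 1.0 without the 3 libraries high in Ttr. Cd52, a small glycoprotein of leukocytes, had 0.29 (SE 0.328), and the activation marker Cd83 had -0.19 (SE 0.273).

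**Figure D2:**
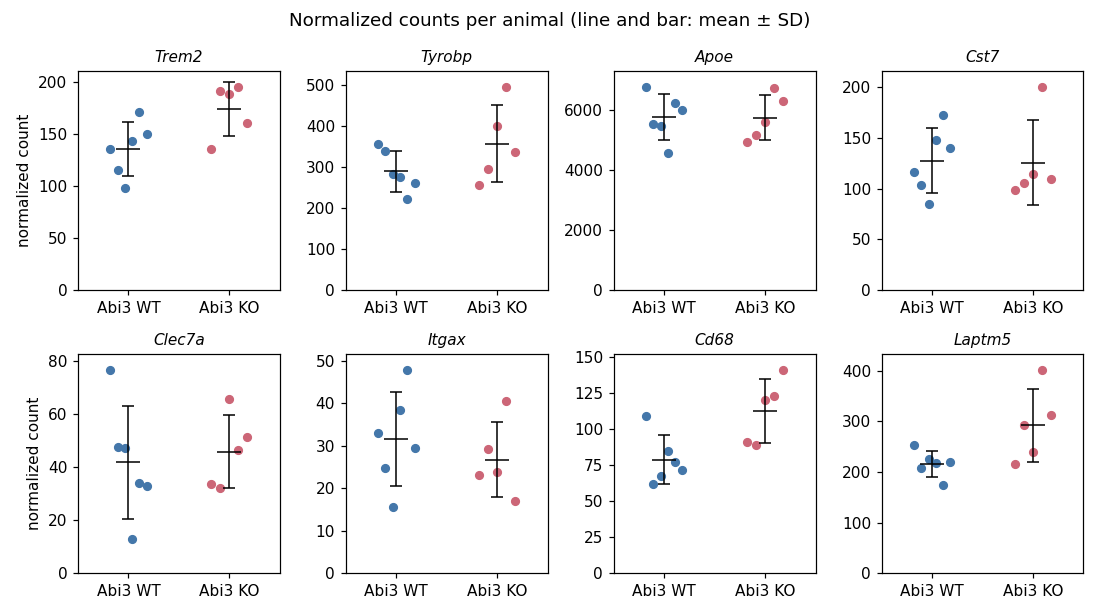
Normalized counts (y axes, each from 0) of Trem2, Tyrobp, Apoe, Cst7, Clec7a, Itgax, Cd68 and Laptm5 in each animal, with the mean and SD of each genotype. Cd68 has all 5 Abi3 KO animals above the Abi3 WT median of 74.7 and Laptm5 has 4 of 5 above its median of 218, whereas the Abi3 KO animals of Apoe, Clec7a and Itgax lie within the range of Abi3 WT.

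The lipid and sterol group held 5 genes, none with an unadjusted p under 0.05 and with a median log2 fold change of -0.01. Apoe, which carries cholesterol and lipids between glia and neurons and is made mostly by astrocytes in the healthy brain, was measured with high counts. It had 4568, 5773 and 6782 normalized counts at the lowest, median and highest in Abi3 WT, and 4933, 5183, 5609, 6735 and 6310 in Abi3 KO. Every Abi3 KO value fell inside the Abi3 WT range. The means were 5774 ± 760 (SD, n = 6) and 5754 ± 757 (SD, n = 5), a fold of 0.997 with a 95% interval from 0.880 to 1.13 (DESeq2 adjusted p = 0.992).

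Lpl, the lipoprotein lipase that frees fatty acids from lipoproteins, was at 156.6 to 451.7 with a median of 228.5 in Abi3 WT and at 194.0, 195.9, 333.0, 212.3 and 284.5 in Abi3 KO. The highest value belonged to Abi3 WT replicate 2, and the log2 fold change was -0.09 (SE 0.287; DESeq2 adjusted p = 0.938), or 0.14 without that animal. Ch25h, which makes 25-hydroxycholesterol, had the log2 fold change farthest from 0 in the list, 1.14 (SE 0.701), on raw counts of 0 to 16 in Abi3 WT and of 12, 7, 5, 19 and 19 in Abi3 KO. All 5 Abi3 KO animals were above the Abi3 WT median of 5.71 normalized counts and 2 were above its maximum, and the 95% interval of the fold ran from 0.851 to 5.73. Plin2, the coat protein of lipid droplets, had 0.62 (SE 0.458) on a mean of 14.2, and Cyp27a1, a sterol hydroxylase, had -0.09 (SE 0.711) on a mean of 5.47.

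Among the 8 lysosomal genes and tetraspanins were the pair with the lowest adjusted p-values of the list. Laptm5 (ENSMUSG00000028581, chromosome 4, 130638161 to 130663452 in GRCm39), a lysosomal membrane protein of blood and immune cells, had 174.5, 218.1 and 253.4 normalized counts at the lowest, median and highest in Abi3 WT, and 216.0, 292.9, 238.7, 400.9 and 312.9 in Abi3 KO. Abi3 KO replicates 2, 4 and 5 lay above every Abi3 WT animal, and replicate 1 lay just under the Abi3 WT median. The means were 216 ± 25.7 (SD, n = 6) and 292 ± 72.3 (SD, n = 5), the log2 fold change being 0.44 (SE 0.146) and the 95% interval of the fold 1.11 to 1.65 (DESeq2 adjusted p = 0.106, edgeR adjusted p = 0.198). It depended on 1 animal. Without Abi3 KO replicate 1 the log2 fold change was 0.53 and the DESeq2 adjusted p 0.0293, the only setting in which a gene of the list passed, and over all settings the adjusted p ranged from 0.0293 to 1.

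Cd68 (ENSMUSG00000018774, chromosome 11, 69555037 to 69557067 in GRCm39), a late endosomal and lysosomal glycoprotein used as a stain for phagocytic microglia, had 62.2, 74.7 and 109.6 in Abi3 WT and 91.2, 88.9, 120.6, 123.1 and 141.1 in Abi3 KO. All 5 Abi3 KO animals were above the Abi3 WT median, and only Abi3 WT replicate 1, the highest of its group, overlapped with them. The means were 79.1 ± 16.9 (SD, n = 6) and 113 ± 22.4 (SD, n = 5), a log2 fold change of 0.52 (SE 0.189; DESeq2 adjusted p = 0.161). Cd68 lies 26.2 Mb from Abi3 on the same chromosome, as Lgals3bp and Timp2 do at 22.5 Mb.

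Other lysosomal genes showed smaller differences. Cst7, the protease inhibitor cystatin F and one of the genes most induced around plaques, was at 84.7 to 172.4 with a median of 128.0 in Abi3 WT and at 98.6, 105.0, 114.6, 199.9 and 109.2 in Abi3 KO. Abi3 KO replicates 1, 2, 3 and 5 were below the Abi3 WT median and replicate 4 was above all other animals, with a log2 fold change of -0.03 (SE 0.208; DESeq2 adjusted p = 0.978). Without the 3 libraries high in Ttr the log2 fold change was 0.18, and with reads outside genes as a covariate 0.78. Lyz2, lysozyme of myeloid cells, had 0.26 (SE 0.160; DESeq2 adjusted p = 0.539), with 4 of 5 Abi3 KO animals above the Abi3 WT median. Gpnmb, a glycoprotein of lysosomes under lipid load, had -0.06 (SE 0.505) on a mean of 19.4. The tetraspanins Cd9, Cd63 and Cd53, scaffolds of the plasma and endosomal membranes, had 0.27, 0.11 and -0.21, the first with 4 of 5 and the last with 1 of 5 Abi3 KO animals above the Abi3 WT median.

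Secreted proteins were 5 of the genes, with a median log2 fold change of 0.11 and none with an unadjusted p under 0.05. Spp1, osteopontin, a matrix protein that microglia release near plaques, was at 7.41 to 29.7 with a median of 19.9 in Abi3 WT and at 8.39, 51.5, 23.9, 33.9 and 15.9 in Abi3 KO. Abi3 KO replicates 2 and 4 were above every Abi3 WT animal and replicates 1 and 5 were below the Abi3 WT median, giving 0.47 (SE 0.433). Without Abi3 KO replicate 2 the value was 0.08. Igf1, insulin-like growth factor 1, had -0.13 (SE 0.20; DESeq2 adjusted p = 0.854), with 44.4 in Abi3 KO replicate 2 against 65.6 to 100.4 in Abi3 WT.

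Lgals3bp, a binding partner of galectins, had means of 68.6 ± 24.9 (SD, n = 6) in Abi3 WT and 85.9 ± 26.5 (SD, n = 5) in Abi3 KO (log2 fold change 0.33, DESeq2 adjusted p = 0.666). Timp2, an inhibitor of matrix metalloproteinases that many brain cells make, had 2199 ± 335 (SD, n = 6) and 2368 ± 377 (SD, n = 5), with 0.11 (DESeq2 adjusted p = 0.741). Lgals3, galectin-3, could hardly be measured in whole cortex: its raw counts were 1 to 17 in Abi3 WT and 0, 6, 4, 6 and 0 in Abi3 KO. The value of 17 belonged to Abi3 WT replicate 4, a library high in Ttr, and the log2 fold change of -0.26 (SE 0.975) became 0.70 without it.

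Of the remaining 7 genes, 6 had values above 0, with a median log2 fold change of 0.26. Hif1a, the oxygen-regulated subunit of a factor that shifts cells to glycolysis, was at 115.8 to 162.1 with a median of 145.1 in Abi3 WT and at 186.7, 172.7, 206.5, 117.5 and 169.6 in Abi3 KO. Abi3 KO replicates 1, 2, 3 and 5 were above every Abi3 WT animal and replicate 4 was near the lowest of them, so that the log2 fold change was 0.26 (SE 0.150; DESeq2 adjusted p = 0.496). With reads outside genes as a covariate it was -0.15. Cybb and Cyba, the catalytic and the partner subunit of the phagocyte NADPH oxidase, had 0.31 (SE 0.400) and 0.42 (SE 0.382), on means of 16.9 and 32.8.

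Fth1 and Ftl1 code for the heavy and the light chain of ferritin, which stores iron. Fth1 had 4647, 5538 and 5955 normalized counts at the lowest, median and highest in Abi3 WT, and 5746, 6022, 5867, 6022 and 5402 in Abi3 KO. The groups overlapped, with 4 of 5 Abi3 KO animals above the Abi3 WT median, and the fold was 1.07 with a 95% interval from 0.984 to 1.16 (DESeq2 adjusted p = 0.543), the narrowest interval of the list. Ftl1 had 0.39 (SE 0.340; DESeq2 adjusted p = 0.697). The last 300 bases of its transcripts matched 14 other annotated genes at 95% identity or more over at least 75 bases, and reads that align to several places were not counted, so its count is uncertain. Ank, a membrane protein that exports pyrophosphate and citrate, had -0.03 (SE 0.0805), and Capg, an actin-capping protein of macrophages, had 0.03 (SE 0.632) on a mean of 8.10.

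Animals of the same genotype differed from each other across the list. Over the 29 genes whose mean normalized count reached 10, Abi3 KO replicate 4 was the highest of the 11 animals in 8 genes and above the mean in 22, and Abi3 KO replicate 2 was the highest in 6. Abi3 WT replicate 1 was the highest in 5 and above the mean in 19. At the other end, Abi3 WT replicate 4 was the lowest in 7 genes, and Abi3 WT replicates 2 and 3 were the lowest in 5 each. Abi3 KO replicate 1 was above the mean in 8 genes, against 18 to 22 in the other 4 Abi3 KO animals and 6 to 19 in Abi3 WT.

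**Figure D3:**
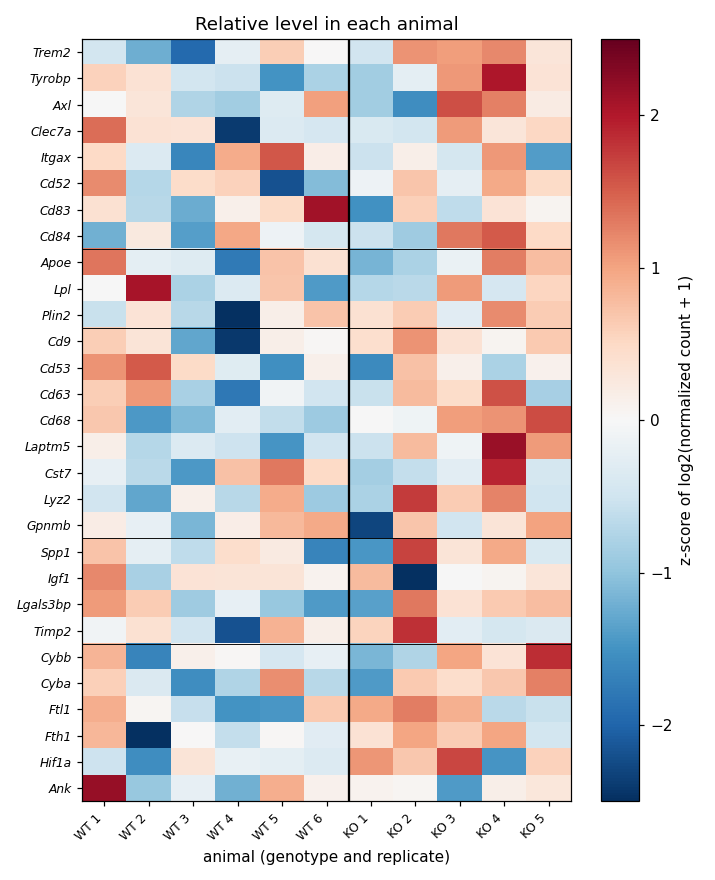
Level of each of the 29 genes whose mean normalized count reached 10 (rows, grouped as receptors, lipid genes, lysosomal genes, secreted genes and others) in each of the 11 animals (columns), as the z-score of log2(normalized count + 1), with the color scale ending at 2.5 in either direction. The columns of Abi3 KO replicates 2 to 5 and Abi3 WT replicate 1 are mostly red, those of Abi3 WT replicates 3 and 4 and of Abi3 KO replicate 1 mostly blue.

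To summarize the program per animal, each gene was z-scored over the 11 animals on the log2(normalized count + 1) scale and averaged over the 29 genes. The score was -0.50, 0.31, 0.37, 0.68 and 0.31 in Abi3 KO replicates 1 to 5, and ranged from -0.60 in replicate 3 to 0.47 in replicate 1 of Abi3 WT. Abi3 KO replicate 4 was thus the highest of all animals, whereas replicate 1 lay among the lowest Abi3 WT animals, and the groups overlapped. The means were -0.19 ± 0.40 (SD, n = 6) and 0.23 ± 0.44 (SD, n = 5), a difference of 0.43 against a spread within genotypes of 0.42. The difference was 0.42 for the myeloid genes and 0.43 for the broadly expressed genes on this scale, which weighs every gene alike, and 0.25 and 0.06 as the log2 of their summed counts. No p-value is given for a score whose genes were chosen with results of these animals known.

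Values of other microglial genes are given here beside those of the list. Of 20 further disease-associated genes, cathepsins and other lysosomal proteins among them, B2m, the light chain of MHC class I, passed the threshold (DESeq2 adjusted p = 0.0234), with a log2 fold change of 0.43 (SE 0.115). It was at 495.8 to 789.6 with a median of 581.7 in Abi3 WT and at 693.2, 943.4, 777.1, 738.6 and 974.1 in Abi3 KO, so that replicates 2 and 5 were above every Abi3 WT animal and the groups overlapped. The call was lost with the filter on low means off (DESeq2 adjusted p = 0.0518), with reads outside genes as a covariate (1), without the 3 libraries high in Ttr (0.138), and without Abi3 WT replicate 3 (0.0548), 5 (0.0939) or 6 (0.0835) or Abi3 KO replicate 2 (0.127) or 5 (0.0869), in a range from 0.000208 to 1 over all settings. The median of the 20 was 0.03, with 11 above 0, against 49.5% of all genes tested. B2m was the 1 gene of the 20 past the threshold, which 0.539% of all genes tested passed. An unadjusted p under 0.05 was found for 3 of the 20, all higher in Abi3 KO, against 4.14% of all genes tested.

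Of 13 genes that microglia express in any state, Ctss, the lysosomal protease cathepsin S, passed (DESeq2 adjusted p = 0.00758), at 831.5 to 1309 with a median of 968.8 in Abi3 WT and at 1118, 1380, 1288, 1585 and 1350 in Abi3 KO. All 5 Abi3 KO animals were above the Abi3 WT median and 3 were above its maximum. Its log2 fold change was 0.44 (SE 0.106). The call was lost with reads outside genes as a covariate (0.74, DESeq2 adjusted p = 0.0962) and held in the other settings, in a range from 3.57e-06 to 0.0962. The median of the 13 was 0.28, with 11 of them above 0, against 49.5% of all genes tested. Ctss was the 1 gene of the 13 past the threshold, against 0.539% of all genes tested. An unadjusted p under 0.05 was found for 4 of the 13, all higher in Abi3 KO, against 4.14% of all genes tested. Of 10 homeostatic genes, which mark resting microglia, none passed in DESeq2 with the filter on or off or in edgeR, none had an unadjusted p under 0.05, and the median was 0.07. The value farthest from 0 among them was that of Gpr34, a lysophosphatidylserine receptor, at 0.38 (SE 0.20; DESeq2 adjusted p = 0.446).

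Per animal, the score of the general microglia genes was -0.35 ± 0.50 (SD, n = 6) in Abi3 WT and 0.42 ± 0.25 (SD, n = 5) in Abi3 KO, a difference of 0.76, beside 0.28 for the homeostatic genes and 0.30 for the further disease-associated genes. The log2 ratio of the summed myeloid genes of the list to the summed homeostatic genes was -0.35 ± 0.14 (SD, n = 6) in Abi3 WT and -0.22 ± 0.09 (SD, n = 5) in Abi3 KO. It ranged from -0.51 to -0.15 and from -0.34 to -0.10, so the groups overlapped. The same ratio to the general microglia genes was -0.89 ± 0.16 (SD, n = 6) and -0.97 ± 0.15 (SD, n = 5), a difference of -0.08 that is smaller than either spread.

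**Figure D4:**
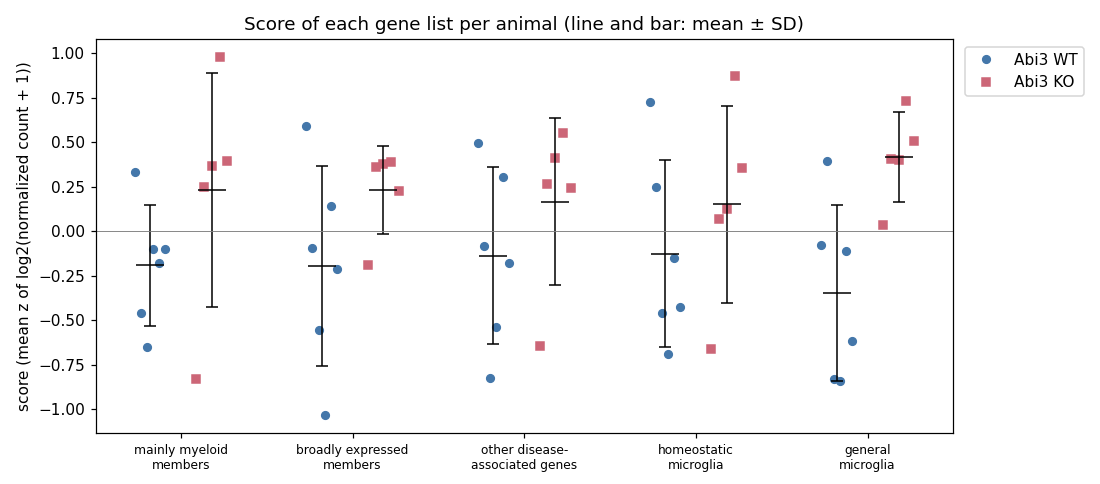
Score of each gene list (y axis, mean z-score of log2(normalized count + 1)) in each animal, with the mean and SD of each genotype. The genotypes overlap in every list shown, and Abi3 KO replicate 1 is the lowest Abi3 KO point in each.

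Markers of neutrophils were at or near 0, and other myeloid and blood cells were present at low levels. Neutrophil genes summed to at most 3.15 normalized counts in any animal, with S100a8 at 0 in all 11. Of the T cell genes, Cd3e, Cd3d, Cd3g and Cd8a had under 10 counts each in all animals together, whereas Trbc2 and Cd4 had means of 17.6 and 13.8, and the list summed to 24.0 to 53.6 in Abi3 WT and 13.6 to 41.8 in Abi3 KO. Of the macrophage and monocyte genes, Ly6c2 and Plac8 had under 10 counts, whereas Mrc1 had a mean of 16.7, F13a1 of 7.5 and Pf4 of 6.85. Their sum was 24.6 to 54.8 in Abi3 WT and 43.0 to 67.1 in Abi3 KO. Of the 8 genes that had results, 7 were above 0, against 49.5% of all genes tested, and the median log2 fold change was 0.40. The red blood cell genes summed to 25.1, 179, 196, 225, 294 and 352 in Abi3 WT and to 7.91, 9.55, 21.0, 46.5 and 389 in Abi3 KO. They were thus lower in 4 of 5 Abi3 KO animals than in 5 of 6 Abi3 WT animals, all 4 genes with results lay below 0, and their median was -1.10. The part of residual blood or macrophages in the values of the list was not tested.

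Astrocytes and neurons also express Apoe, Fth1, Timp2 and others of the list. Of 8 astrocyte, 7 neuron and 6 oligodendrocyte genes none passed the threshold in DESeq2 or edgeR. An unadjusted p under 0.05 was found for 0, 1 and 1 of them, against 8.58% of all genes tested. The median log2 fold changes were -0.10, 0.10 and 0.15. Their scores per animal differed by -0.26, 0.38 and 0.62 between the genotypes, beside 0.43 for the list. The medians were 0.21 for 3 oligodendrocyte precursor, -0.18 for 6 endothelial, 0.06 for 5 meningeal, 0.07 for 5 choroid plexus and -0.46 for 2 T cell genes. No gene of these lists or of the macrophage and red blood cell lists passed in DESeq2 or edgeR, and 1 endothelial, 1 meningeal and 1 choroid plexus gene had an unadjusted p under 0.05, all lower in Abi3 KO.

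How much these data can show depends on the counts. Of the 33 genes, 18 reached a mean of 70.4 normalized counts, the level under which DESeq2 gave no adjusted p, and 15 had none for that reason, whereas 36.8% of all genes tested were given one. The half-width of the 95% interval on the log2 scale grew from 0.12 for Fth1 to 1.91 for Lgals3. For 22 of the 33 genes the interval lay inside a doubling and a halving. For the other 11, among them Lgals3, Cyp27a1, Ch25h, Capg, Gpnmb, Plin2 and Spp1, it reached past one of them, so a 2-fold difference was within the error at this depth. The search that touched Ftl1 also matched the last 300 bases of other genes of the list, to any part of another transcript. It gave 2 other genes for Cd63, 1 each for Fth1, Hif1a and Spp1, and 75 for Plin2. Those are further counts to treat with care.

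**Figure D5:**
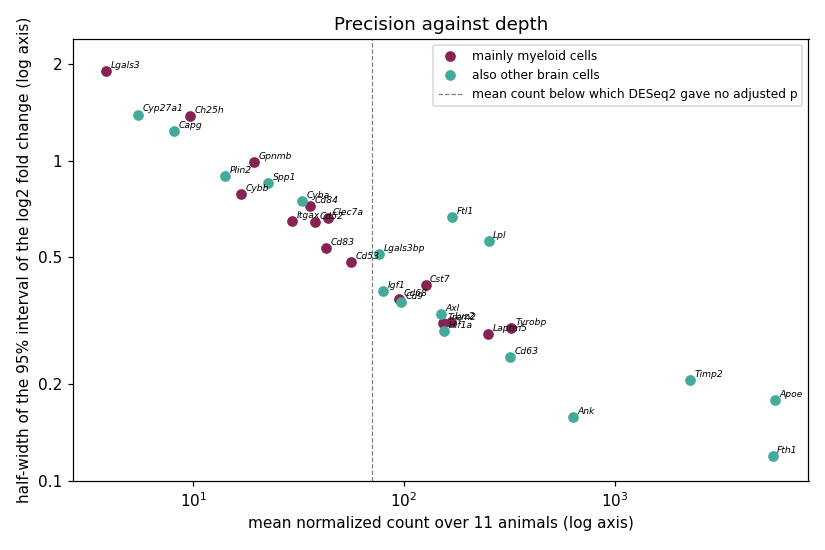
Half-width of the 95% interval of the log2 fold change (y axis, log scale) against the mean normalized count over 11 animals (x axis, log scale) for the 33 genes, with a dashed line at the mean of 70.4 under which no adjusted p was given. The interval narrows from 1.91 at the lowest mean, Lgals3, to 0.12 for Fth1, with Ftl1 and Lpl wider than genes of like counts.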

How the data were processed

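The deposited files are tables of raw counts per gene, 1 per animal. According to the study's methods, the authors trimmed adapters and poly(A) from single-end QuantSeq reads, aligned them to GRCm39 with STAR (2.7.3a) and counted reads by strand with HTSeq (0.9.1). No step collapsing PCR copies is stated. At these depths 3 counts equal 0.545 to 0.937 CPM, a floor that covers counting error only. Fitted intervals and p-values also hold the spread between these samples.

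DESeq2 (1.42.0, R 4.3.3) was fitted with genotype as the only term on genes with 10 or more reads in all. Results were kept for a mean normalized count from 1.5 upward, and the threshold was a Benjamini-Hochberg adjusted p of 0.05, which was also the target of independent filtering, a setting not given in the sources used here. Symbols came from GENCODE (52610 of 53700 identifiers matched). All genes of the list are named, and from other microglial lists the genes past the threshold or else that farthest from 0; for lists of other cells only counts are given. Members and lists were chosen with earlier results of these data known. Alternatives were edgeR (4.0.16), TMM factors, other filters, the replicate number as a block, reads outside genes as a covariate, leaving out each animal and, added after seeing the data, leaving out 3 libraries high in Ttr. Fits were tested on simulated data. Stretches of other transcripts like the 3′ ends of the genes were sought with BLAST (2.17.0).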

Additional observations from a re-analysis of the deposited data

Results flagged for a closer look

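Of 70 groups of values examined, 3 had an animal far from the others of its genotype, a gap that chance alone gives in about 1 of 20 groups (3.5 of 70). Cst7, cystatin F, was at 199.9 normalized counts in Abi3 KO replicate 4, where the next Abi3 KO animal was at 114.6. Lgals3, galectin-3, was at 14.5 in Abi3 WT replicate 4 (raw count 17), where the next Abi3 WT animal was at 3.346, and this library was also high in Ttr. Ank was at 570.6 in Abi3 KO replicate 3, under the other Abi3 KO animals, the nearest of which was at 633.3.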

How the results depend on the processing

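Of the 33 genes, 18 kept the sign of their log2 fold change in all 20 alternatives, 17 above 0 (Trem2, Tyrobp, Laptm5 and Cd68 among them) and Cd53 below. The number past the threshold was 0 in every alternative except without Abi3 KO replicate 1, where it was 1, so leaving out single animals gave 0 to 1. The number of genes of the list with an unadjusted p under 0.05 went from 4 to 2 without Abi3 WT replicate 3 or Abi3 KO replicate 3 (Cd68 and Laptm5 in both; 8.49% and 8.75% of all genes) and to 7 with reads outside genes as a covariate (3.69% of all genes) or without the 3 libraries high in Ttr (6.11%), against 8.58% as reported. Over all genes, 95 passed as reported, 76 with TMM factors, 86 with no filter on low counts, 77 with a mean of at least 10, 94 with a filtering target of 0.1, 58 with independent filtering off, 44 in edgeR (19 higher and 25 lower, against 60 and 35), 33 with the block, 3 with the covariate, 27 without the 3 libraries high in Ttr, and 46 to 120 when single animals were left out. The further disease-associated genes past the threshold numbered 0 with independent filtering off and with the covariate, and 0 to 2 when single animals were left out (2 without Abi3 KO replicate 1, Ctsb and B2m), and without the 3 libraries high in Ttr the gene that passed was Ctsb in place of B2m. The general microglia genes past it numbered 0 with the covariate and 1 to 2 when single animals were left out (C1qa with Ctss without Abi3 WT replicate 1 or Abi3 KO replicate 3).

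The median log2 fold change of the list was 0.46 with the covariate and 0.253 over the 29 genes fitted with a mean of at least 10. When single animals were left out it was 0.12 to 0.26, and the score difference 0.33 to 0.61. Abi3 was given no adjusted p as reported and passed with a fitted log2 fold change of -5.13 in edgeR and of -5.42 with independent filtering off. With reads outside genes as a covariate, which differs between the genotypes and so cannot be told apart from them in full, signs turned for Itgax (0.60), Cd83 (0.31), Apoe (0.19), Cyp27a1 (1.09), Cst7 (0.78), Gpnmb (0.33), Igf1 (0.082), Lgals3 (1.11), Timp2 (-0.14) and Hif1a (-0.15). Without the 3 libraries high in Ttr they turned for Itgax (0.045), Cst7 (0.18), Lgals3 (1.43) and Capg (-0.26). When single animals were left out, the log2 fold change ranged over 0 for Axl (-0.019 to 0.198), Clec7a (-0.05 to 0.39), Apoe (-0.066 to 0.047), Lpl (-0.23 to 0.14), Cyp27a1 (-0.46 to 0.24), Cst7 (-0.257 to 0.082), Gpnmb (-0.38 to 0.23), Igf1 (-0.217 to 0.015), Lgals3 (-0.64 to 0.70), Ank (-0.059 to 0.011) and Capg (-0.19 to 0.37). The cause of these changes was not tested.

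Replicate numbers 1 to 5 are shared by the genotypes, but deviations of animals with the same number were not alike (mean r 0.0184, -0.00485 to 0.0656, against -0.00368 for other numbers), so the numbers do not pair them. With the replicate number as a block Apoe (0.009) and Gpnmb (0.009) turned sign, no gene of the list passed, and the difference in reads outside genes was -11.3 (exact permutation test, p = 0.0625, the smallest this design allows).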
